A study of Homo sapiens with 8 samples.

Results

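The oligosaccharyltransferase subunits STT3A, STT3B, MAGT1, TUSC3, RPN1, RPN2, DDOST, DAD1 and OSTC, together with the glucosyltransferase UGGT1, were measured on 8 arrays of human cancer cell lines. These 10 genes, of 43317 named on the array, were found by the gene name in the array annotation. They were chosen by measured values, because STT3A, STT3B, MAGT1 and UGGT1 were candidate genes of the study with low ratios in HCT116 cells. Their values in HCT116 are therefore a description without a test, and the arrays of the other cell lines are the ones that were tested.

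Each array was hybridised with RNA of mock cells, labelled as not transfected, in the Cy3 channel, and with RNA of transfected cells of that line in the Cy5 channel. The renal cancer lines A498 and 786-O received mature miR-139-5p on 1 array each and mature miR-139-3p on 1 array each (n = 2 arrays per strand). These miRNAs are opposite strands of a duplex. A pair of small interfering RNAs against GINS1, siRNA 1 and siRNA 2, was transfected into MDA-MB-231, a breast cancer line (n = 2 arrays, 1 per siRNA), and mature miR-490-5p and miR-490-3p into HCT116, a colorectal cancer line (1 array each). No array was dye-swapped, all 8 lay on 1 slide, no group was a control miRNA, and both arrays of a line carry the same mock code in their names, so a line's mock may be a single RNA extract. Effects of the transfection itself and of the miRNA or siRNA cannot be told apart in a ratio to mock.

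Asparagine-linked glycosylation begins when oligosaccharyltransferase moves a preassembled glycan from a lipid carrier onto a nascent protein in the endoplasmic reticulum. The enzyme exists as a pair of complexes. STT3A is the catalytic subunit of the complex docked at the protein translocon, and STT3B that of the complex which works with an oxidoreductase subunit, MAGT1 or TUSC3. RPN1, RPN2, DDOST and DAD1 are shared by both complexes, and OSTC belongs to the STT3A complex. UGGT1 acts later and adds a glucose back to glycans of misfolded proteins, so that the lectins calnexin and calreticulin bind them again.

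The agents that separate the arrays are the miRNA strands, and they are shown because strands of a duplex carry different seeds, the bases that pair with target messages. The RefSeq mature sequences follow, 5′ to 3′, with bases 2 to 8, the seed, in capitals. On GRCh38.p14 the strands of miR-490 lie at chr7:136903242-136903263 (miR-490-3p, plus strand) and chr7:136903205-136903224 (miR-490-5p, plus strand). Those of miR-139 lie at chr11:72615066-72615088 (miR-139-3p, minus strand) and chr11:72615102-72615124 (miR-139-5p, minus strand).
miR-490-3p: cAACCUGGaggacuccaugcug
miR-490-5p: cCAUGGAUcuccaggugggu
miR-139-3p: uGGAGACGcggcccuguuggagu
miR-139-5p: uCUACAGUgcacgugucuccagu
The 4 seeds all differed, so the strands fell into no shared seed group.

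The 10 genes were measured by 14 probes of 60 bases, with positions on hg19 as in the array annotation. STT3A had 1 probe printed in 10 spots (chromosome 11, 125489999 to 125490703), and STT3B had 1 probe in 1 spot (chromosome 3, 31670855 to 31674437). These intervals cover 705 and 3583 bases, so both probes are split in the genome, as a probe across joined exons is. MAGT1 had 4 probes on chromosome X, and the brightest (77081905 to 77081964, minus strand) stands for the gene below. RPN2 had 2 probes on chromosome 20, the brighter at 35862438 to 35862497. UGGT1 had 1 probe (chromosome 2, 128948902 to 128948961), and DAD1 had 1 probe in 10 spots. Exon, intron and UTR boundaries were not used here.

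The cell line labels were checked in the mock channel. Most markers did not separate the lines by detection alone. The renal marker PAX8 was above background in all 4 lines, 1 of 2 PAX2 probes in every line but MDA-MB-231, and CA9 in none. Of the colorectal markers, EPCAM was above background in all 4 lines, CDH1 in HCT116 and MDA-MB-231, CDX2 in HCT116 alone and KRT20 in none. VIM and 1 of 3 ESR1 probes were above background in every line. For the breast line, the detected CDH1 and ESR1 thus went against the markers set for it. By log2 level of the brightest probe, some markers did separate the lines. EPCAM had 11.80 in HCT116 and at most 7.90 elsewhere, and VIM 6.77 in HCT116 and at least 14.65 elsewhere. CDH1 had 9.17 in HCT116 and 6.21 in MDA-MB-231. PAX8 had 8.13 in A498 and 8.06 in 786-O, against 6.71 in MDA-MB-231 and 6.31 in HCT116. ESR1 was dim in every line, at 5.99 to 6.09. GINS1, the targeted gene, had log2 ratios of -1.31 with siRNA 1 and -1.92 with siRNA 2, against -0.11 to 0.55 on the other 6 arrays. Between 24983 and 29686 probes per array were above background in at least 1 channel, and 0 spots were saturated.

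In HCT116, both catalytic subunits were among the genes with the lowest ratios after miR-490-3p, whereas after miR-490-5p STT3A stood much lower than STT3B. STT3A had a log2 ratio to mock of -1.42 after miR-490-3p and -1.25 after miR-490-5p, or 0.374 and 0.42 times mock. STT3B had -1.26 and -0.45, or 0.418 and 0.73 times mock. By rank from the lowest, STT3A was gene 40 and STT3B gene 74 of 21863 after miR-490-3p. After miR-490-5p STT3A was gene 120 and STT3B gene 1397 of 21541.

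In these bulk samples, less RNA per cell and fewer cells with the transcript cannot be told apart. The spots of STT3A give the error within an array. After miR-490-3p, 9 of its 10 spots could be used and ranged from -1.48 to -1.35 (SD 0.05). After miR-490-5p, 9 spots ranged from -1.37 to -1.13 (SD 0.07), so the spots of both arrays overlapped. Before any normalization the mean brightness of these spots was 578 in Cy3 and 237 in Cy5 after miR-490-3p, and 576 and 240 after miR-490-5p. The STT3B spot read 185 in Cy3 and 66.6 in Cy5 after miR-490-3p, and 189 and 135 after miR-490-5p. The Cy3 values of both genes were thus alike on both arrays, and for STT3B the Cy5 value was the one that differed.

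The oxidoreductase subunits of the STT3B complex could be read for MAGT1 and hardly for TUSC3. MAGT1 had a log2 ratio of -0.75 after miR-490-3p and -0.68 after miR-490-5p. Its 4 probes ranged from -0.75 to -0.30 after miR-490-3p and from -0.71 to -0.26 after miR-490-5p, all below 0. One of these 4 probes, designed on another transcript record, runs on the opposite strand in the annotation from the other three, and had -0.32 and -0.30. This dim probe depended on the processing. With the ratio made by the scanner software it had -1.505 after miR-490-3p and -1.258 after miR-490-5p, the lowest of the 4 probes on both arrays. The brightest probe then had -0.87 and -0.72. TUSC3 was not well above background in either channel after miR-490-5p. After miR-490-3p it was above background, with a log2 ratio of 0.01.

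The shared subunits had smaller ratios. RPN1 had -0.26 after miR-490-3p and -0.50 after miR-490-5p. RPN2 had -0.21 and -0.50, and its second probe -0.31 and -0.48. DDOST had -0.33 and -0.42. DAD1, a small membrane subunit, was not below mock in this way, with -0.00 after miR-490-3p and 0.29 after miR-490-5p. Its 10 spots ranged from -0.07 to 0.07 on the first array and from 0.23 to 0.36 on the second, without overlap. With median centring in place of loess the ratios of RPN2 (0.17), DDOST (0.03) and DAD1 (0.38) after miR-490-3p lay above 0.

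OSTC, of the STT3A complex, had -0.44 after miR-490-3p and -0.85 after miR-490-5p. UGGT1 had -0.85 and -0.86, almost the same on both arrays. It crossed -1 on both arrays with the ratio made by the scanner software, at -1.09 after miR-490-3p and -1.03 after miR-490-5p.

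**Figure D1:**
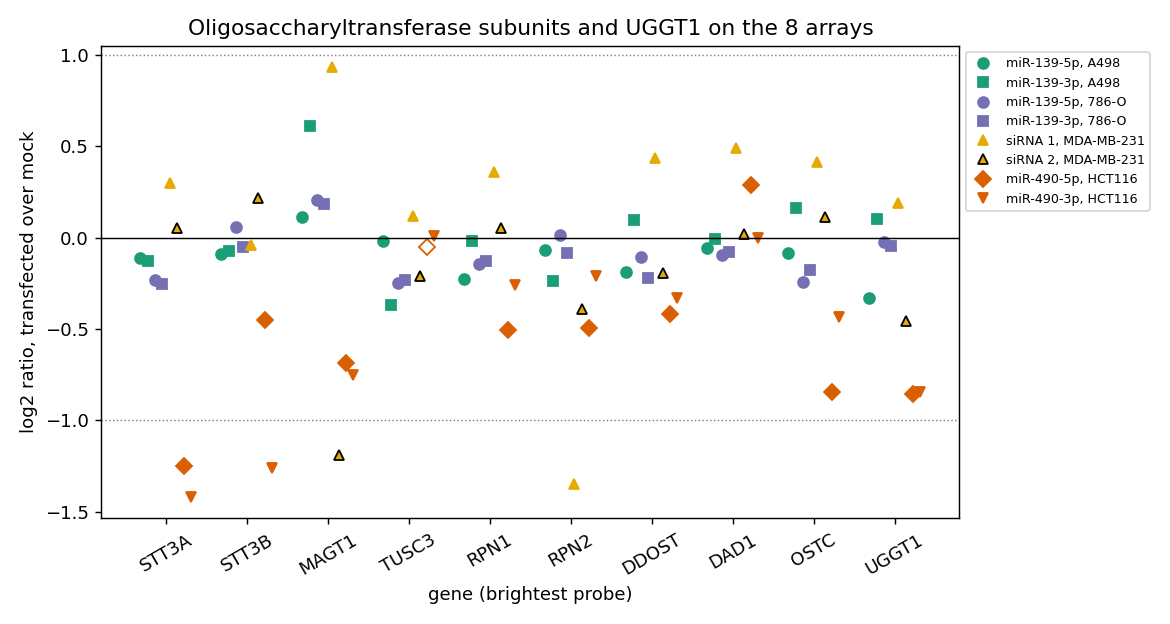
Log2 ratio of transfected over mock cells (vertical axis) for the brightest probe of each of the 10 genes (horizontal axis) on the 8 arrays, with a symbol per agent and a colour per cell line; the open symbol is not above background in either channel and the dotted lines mark -1 and 1. STT3A sits at -1.42 and -1.25 on the HCT116 arrays and between -0.25 and 0.30 on the other 6, while MAGT1 has 0.93 and -1.19 on the siRNA arrays.

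Counted together, 9 of 10 genes were below 0 after miR-490-3p, with a median log2 ratio of -0.38, whereas 48.2% of all genes were below 0 and their median was 0.01. With median centring 6 of 10 were below 0, and 32.4% of all genes. At or below -1 were 2 of the 10 genes, STT3A and STT3B, against 0.672% of all genes (147 of 21863), and 0 were at or above 1 (0.398% of all genes). After miR-490-5p, 8 of the 9 genes above background were below 0, with a median of -0.50, against 46.5% of all genes and a median of 0.01. STT3A alone was at or below -1 (1.09% of all genes, 235 of 21541), and 0 were at or above 1 (0.297%). Since the genes were chosen on these ratios, nothing is read from these counts.

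The strands were then set against each other, by subtracting the log2 ratio after miR-490-5p from that after miR-490-3p. This removes a constant dye bias of a probe. STT3B had the largest difference of the 9 genes above background on both arrays, at -0.81, and was gene 253 from the lowest of 20788. OSTC had a difference of 0.41 and lay on the other side, followed by RPN2 at 0.29 and RPN1 at 0.25. DAD1 had -0.29 and STT3A -0.17. DDOST at 0.09, MAGT1 at -0.07 and UGGT1 at 0.01 differed least. In all, 0 of 9 genes reached -1 (0.443% of all genes did) and 0 reached 1 (0.837%).

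The only error available for these differences is technical. Both mock channels of HCT116 differed with an SD of 0.0729 on the log2 scale over 19122 genes. This SD holds no spread of the Cy5 channel, and the genes were chosen with these ratios known. The differences were therefore not measured against it. With 1 array per strand no test was possible, and the spread between cultures is unknown. The STT3B difference rested on 1 dim spot and depended on the background correction. It was -1.16 with an offset of 10, -1.10 without background correction and -1.40 with the scanner ratio.

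**Figure D2:**
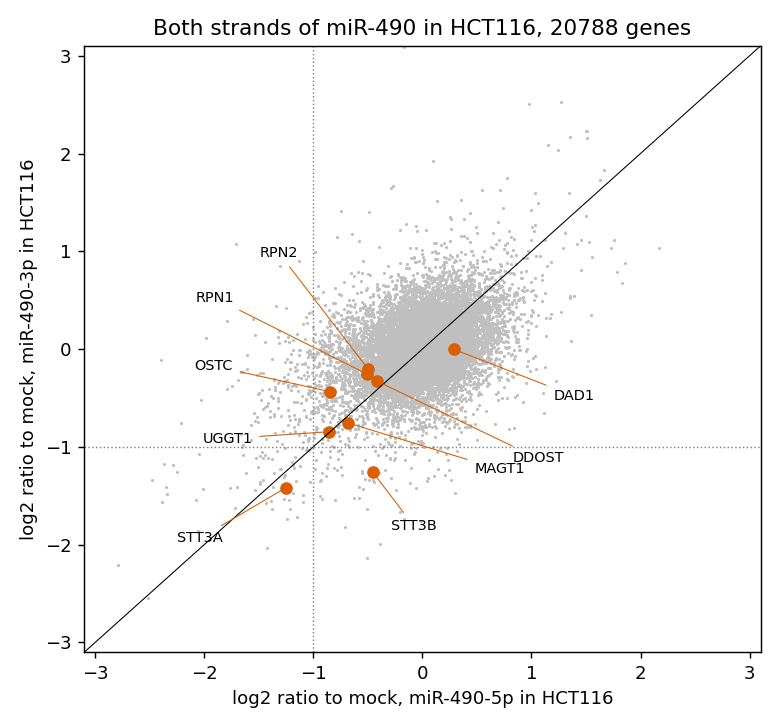
Log2 ratio to mock in HCT116 after miR-490-5p (horizontal) and miR-490-3p (vertical) for 20788 genes above background on both arrays (grey), with 9 of the 10 genes in orange, the line of equal ratios and dotted lines at -1. STT3A lies past -1 on both axes, STT3B only on the vertical axis at -1.26, and OSTC above the line of equal ratios.

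The other steps of the pathway were described from 4 gene lists. The lists were chosen with earlier results of these data known. Their values and counts in HCT116 are therefore a description, and nothing is read from the shares of all genes beside them. None of the 3 other subunits of the enzyme, OST4, KRTCAP2 and TMEM258, was past -1 or 1 on either HCT116 array, and their log2 ratios ranged from -0.19 to -0.06 after miR-490-3p and from -0.12 to 0.07 after miR-490-5p. All 3 were above 0 on both arrays with median centring. The 24 genes that build the lipid-linked glycan also had 0 past either limit, and their medians were 0.02 after miR-490-3p (10 of 24 below 0) and -0.26 after miR-490-5p (19 of 24 below 0). Over all genes 48.2% and 46.5% were below 0, and both medians were 0.01.

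The list of glycan trimming and lectin quality control holds the glucosidases, the lectins and their partners, the mannose-trimming genes of degradation and the cargo receptor LMAN1. After miR-490-5p, 14 of 14 were below 0 with a median of -0.62, where 46.5% of all genes were below 0. After miR-490-3p, 13 of 14 were below 0 with a median of -0.29, where 48.2% of all genes were. PDIA3, the disulfide isomerase that works with calnexin and calreticulin, had -1.53 after miR-490-5p and -1.11 after miR-490-3p. CALR, which encodes calreticulin, had -1.29 and -0.97. MOGS, the glucosidase that trims the first glucose, had -1.18 and -0.37. With median centring 14 of 14 and 11 of 14 were below 0, where 35.9% and 32.4% of all genes were. At or below -1 was 1 of 14 after miR-490-3p, PDIA3 (0.672% of all genes), and 3 of 14 after miR-490-5p, PDIA3, CALR and MOGS (1.09% of all genes).

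Among the translocon and translocon-associated genes, 1 of 9 above background was at or below -1 after miR-490-5p, SEC61A1, the channel subunit, at -1.15, and the median was -0.32. After miR-490-3p 0 of 10 were, SEC61A1 had -0.54 and the median was -0.11, or 0.16 with median centring.

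**Figure D3:**
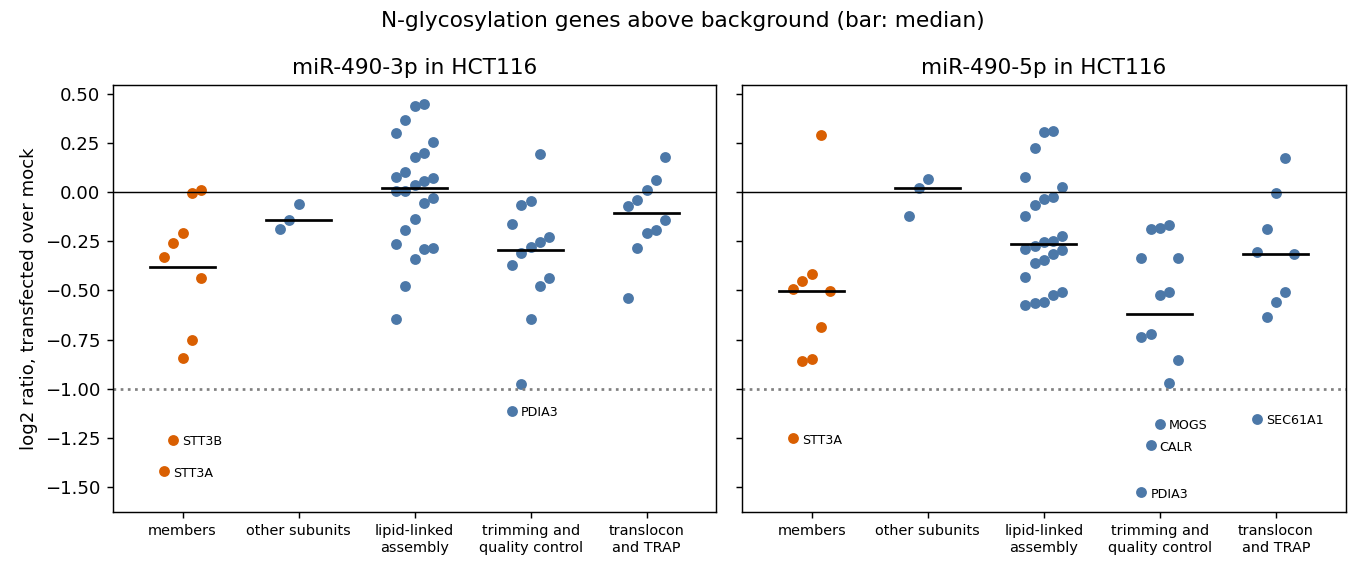
Log2 ratio to mock in HCT116 (vertical) of every gene above background in the 10-gene set and in 4 lists of the pathway (horizontal), after miR-490-3p (left) and miR-490-5p (right), with the median as a bar and a dotted line at -1. After miR-490-5p all 14 trimming and quality control genes lie below 0, with a median of -0.62, and PDIA3 is lowest at -1.53.

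In the renal lines the log2 ratios of the 10 genes ran from -0.37 for TUSC3 to 0.61 for MAGT1, both in A498 after miR-139-3p. After miR-139-5p the log2 ratio of STT3A was -0.11 in A498 cells and -0.23 in 786-O cells, and that of STT3B was -0.09 and 0.06. After miR-139-3p STT3A had -0.13 and -0.25, and STT3B -0.07 and -0.05. STT3A was thus below 0 on all 4 arrays, and STT3B on 3 of them. The signs of such small ratios depended on the scaling. With median centring in place of loess, 1 of 10 genes rather than 9 of 10 lay below 0 after miR-139-5p in A498. After miR-139-3p in 786-O, 2 rather than 9 did. The share of all genes below 0 fell as well, from 47.1% to 17.3% on the first array and from 47% to 23% on the second.

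MAGT1 was above mock on all 4 arrays by its brightest probe, with 0.11 in A498 cells and 0.20 in 786-O cells after miR-139-5p, and 0.61 and 0.19 after miR-139-3p. Its other 3 probes did not share this outside A498 with miR-139-3p, where they had 0.08 to 0.19. Elsewhere they lay between -0.12 and -0.00. UGGT1 had -0.33 and -0.02 after miR-139-5p and 0.10 and -0.05 after miR-139-3p. The other genes, TUSC3, RPN1, RPN2, DDOST, DAD1 and OSTC, ranged from -0.25 to 0.01 after miR-139-5p and from -0.37 to 0.16 after miR-139-3p.

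By limma over all probes, 0 of 10 genes were called after miR-139-5p, where 0.0129% of 23282 probes were called lower (3 probes) and 0% higher. None was called after miR-139-3p, where 0 of 22806 probes were called in either direction (0% each) and 1012 had an unadjusted p under 0.05. The adjusted p from limma was 1 for each of the 10 genes with each strand. The smallest unadjusted p was that of TUSC3 after miR-139-3p, 0.0364 in limma, with a mean log2 ratio of -0.30 ± 0.09 (SD, n = 2 arrays). STT3A had -0.17 ± 0.09 after miR-139-5p and -0.19 ± 0.09 after miR-139-3p (SD, n = 2 each, adjusted p = 1 by limma).

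The direct contrast of both strands, miR-139-3p minus miR-139-5p, called 0 of 22174 probes (0% in each direction, 151 with an unadjusted p under 0.05 in limma) and 0 of 10 genes. The estimates ran from -0.17 for TUSC3 to 0.24 for MAGT1. A difference between the strands of miR-139 was not detectable for these genes with 2 arrays each, and a p above the threshold does not show that they act alike.

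In MDA-MB-231 the 2 siRNAs against GINS1 gave ratios that differed from each other for several genes. With siRNA 1, 2 of 10 genes were below 0 and the median log2 ratio was 0.33, against 46.6% of all genes and a median of 0.01. With siRNA 2, 5 of 10 were below 0 and the median was -0.09, against 48.4% of all genes and a median of 0.01. The counts depended on the scaling. With median centring 1 of 10 was below 0 with siRNA 1 (22.8% of all genes) and 2 of 10 with siRNA 2 (32.9%). The medians of the 10 genes were then 0.79 and 0.18. The ratio was higher with siRNA 1 than with siRNA 2 in 8 of 10 genes, whereas 50.4% of 21366 genes were.

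MAGT1 showed the widest gap. Its log2 ratio was 0.93 with siRNA 1 and -1.19 with siRNA 2, a difference of 2.12, and 0.337% of all genes had a gap of that size or more. All 4 MAGT1 probes lay above 0 with siRNA 1, from 0.26 to 0.93, and below 0 with siRNA 2, from -1.19 to -0.28. The opposite signs held with the scanner ratio and with median centring. The mean over both siRNAs was -0.13 ± 1.5 (SD, n = 2), which was not called (adjusted p = 0.905 by limma).

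RPN2 had the lowest mean of the 10 genes over both siRNAs. Its log2 ratio was -1.35 with siRNA 1 and -0.39 with siRNA 2, and its second probe had -1.48 and -0.34. Its mean of -0.87 ± 0.68 (SD, n = 2) did not pass the threshold (SE 0.225, adjusted p = 0.0934 by limma), nor did that of the second probe (-0.91, adjusted p = 0.116). The ratio with siRNA 2 was 0.02 with median centring, so its direction there depended on the scaling.

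The catalytic subunits had smaller ratios. STT3A had 0.30 and 0.05 with siRNA 1 and siRNA 2, and STT3B -0.04 and 0.22. STT3B with siRNA 1 was 0.26 with median centring. The ratios of RPN1 were 0.36 and 0.05, of DAD1 0.49 and 0.02, and of OSTC 0.42 and 0.11. DDOST had 0.44 and -0.19, TUSC3 0.12 and -0.21, and UGGT1 0.19 and -0.45. With siRNA 2 DDOST and TUSC3 lay above 0 with median centring (0.11 and 0.04).

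In all, 0 of 10 genes were called across both siRNAs by limma, while 3.63% of 27795 probes were called lower (1010) and 3.33% higher (926). The split of these calls rested on the scaling, with 285 lower and 2689 higher after median centring and 59 lower and 16 higher with the scanner ratio. Taking 1 siRNA alone leaves 1 array in the group, and the spread in the fit then comes from the miR-139 pairs in the renal lines. That spread does not measure how an siRNA varies in MDA-MB-231, so nothing is read from calls made this way. Without siRNA 1, the log2 ratios of the 10 genes ran from -1.19 for MAGT1 to 0.22 for STT3B. Over the array 12.2% of 28624 probes were then called lower and 11.3% higher. Without siRNA 2, they ran from -1.35 for RPN2 to 0.93 for MAGT1. Here 14.4% of 29676 probes were called lower and 17.6% higher.

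Of the pathway lists, limma called ALG5 and ALG8, glucosyltransferases of glycan assembly, higher across both siRNAs (2 of 24 genes, adjusted p = 0.0276 and 0.0472), and GANAB, the catalytic subunit of glucosidase II, lower (1 of 14, adjusted p = 0.0243). Of all probes 3.33% were called higher and 3.63% lower, so little is read from these few calls. No probe was called with only the siRNA arrays in the fit or with a variance trend and robust prior. ALG5 had log2 ratios of 0.35 and 0.36 with siRNA 1 and siRNA 2, ALG8 1.02 and 0.47, and GANAB -0.43 and -0.65. None of the 3 other subunits and none of the 10 translocon genes was called. No gene of the 4 lists was called with either strand of miR-139 or between its strands.

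**Figure D4:**
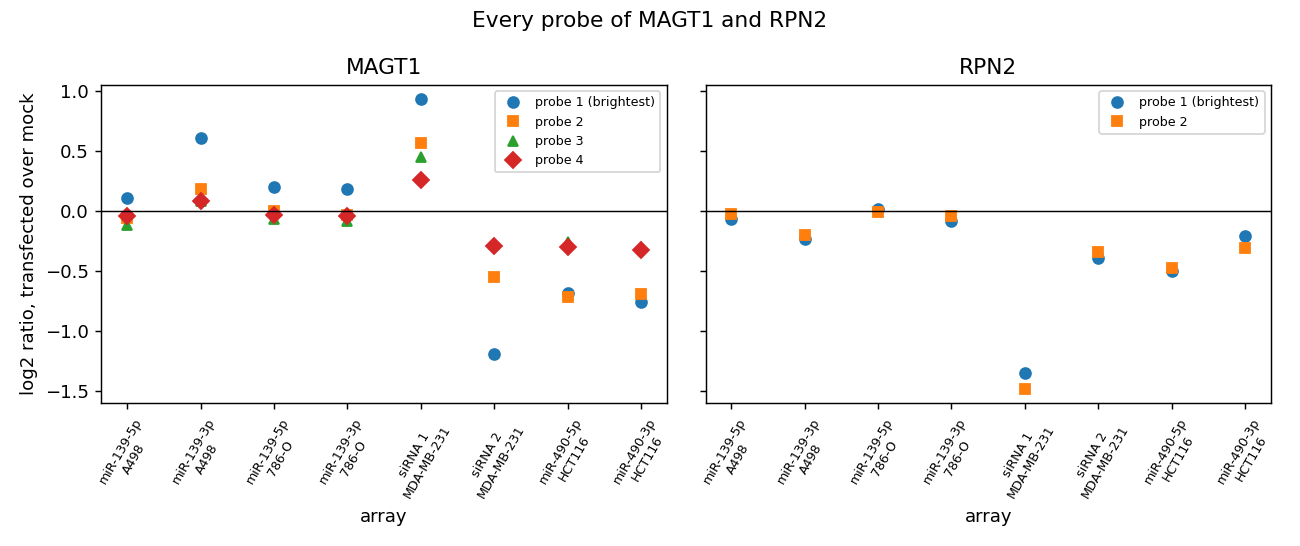
Log2 ratio of transfected over mock cells (vertical) for each of the 4 MAGT1 probes (left) and 2 RPN2 probes (right) on the 8 arrays (horizontal). All MAGT1 probes are above 0 with siRNA 1 and below 0 with siRNA 2, and both RPN2 probes are lowest with siRNA 1, at -1.35 and -1.48.

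The levels in mock cells were compared in the Cy3 channel, within a gene only. They are given as log2 intensity of a probe after quantile normalization over the 8 channels. STT3A had its highest level in HCT116 (8.85 and 8.88 in the channels of its 2 arrays), followed by MDA-MB-231 (8.57 and 8.58), 786-O (8.37 and 8.42) and A498 (7.41 and 7.38). The order was the same with median scaling, and no neighbours overlapped. STT3B was also highest in HCT116 (7.49 and 7.51) and lowest in A498 (6.82 and 6.86), with 786-O (7.18 and 7.13) and MDA-MB-231 (6.91 and 6.93) between them in an order that median scaling turned.

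TUSC3 had the widest range, 3.93 on the log2 scale. A498 had levels of 9.78 and 9.86, the 786-O line 9.50 and 9.43, MDA-MB-231 cells 8.68 and 8.70, and HCT116 cells 5.87 and 5.92, where it was well above background in 1 of 2 mock channels. HCT116 and A498 stayed lowest and highest with median scaling. MAGT1, the alternative oxidoreductase, had a range of 0.75, with A498 lowest (9.23 and 9.22) under both scalings. The level of MAGT1 in MDA-MB-231 (9.62 and 9.79) overlapped that in HCT116 (9.65 and 9.59).

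The remaining genes differed less or in an order that the scaling changed. DDOST had a higher pair of lines, 786-O (10.80 and 10.83) and HCT116 (10.86 and 10.75), and a lower pair, A498 (9.65 and 9.72) and MDA-MB-231 (9.71 and 9.56), and the lines overlapped within each pair. RPN1 had its higher levels in the same lines, 786-O (8.56 and 8.54) and HCT116 (8.42 and 8.47). With median scaling A498 was lowest for both genes, and the other lines changed order. Ranges were 0.50 for RPN2, 0.67 for DAD1, 0.50 for OSTC and 0.35 for UGGT1. Neighbours overlapped between A498 and HCT116 for DAD1, between 786-O and HCT116 for OSTC, and between A498 and 786-O for UGGT1. Both channels of a line may be 1 extract, so no test between lines was made.

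**Figure D5:**
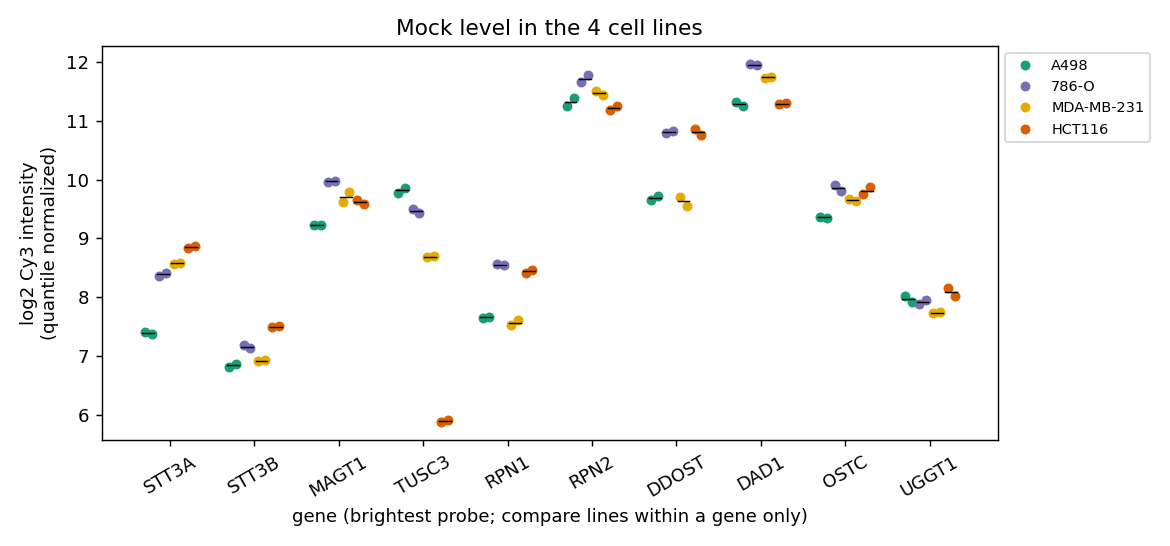
Log2 Cy3 intensity of mock cells after quantile normalization (vertical) for the brightest probe of each gene (horizontal), as a point per array and a bar for the mean of a line's 2 channels. TUSC3 is at 5.87 and 5.92 in HCT116 and between 8.68 and 9.86 in the other lines, and STT3A is highest in HCT116.

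The genes whose ratios over all 8 arrays were nearest to those of STT3A, by root mean square difference among 16307 genes, were DDIT3 at 0.179, VGF at 0.189 and CRELD1 at 0.195. DDIT3, which encodes the transcription factor CHOP, had -1.44 after miR-490-3p and -1.54 after miR-490-5p in HCT116. Nearest to STT3B were TMEM256 at 0.126, SEPHS2 at 0.135 and OS9 at 0.136. OS9, a lectin of the endoplasmic reticulum, had -0.97 after miR-490-3p and -0.39 after miR-490-5p. These are descriptions of 8 arrays, which may share mocks in pairs.

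Seed matches could be looked for in the probe sequences only, a small stretch of each transcript. None of the 14 probes held a match to the seed of miR-490-3p, either CCAGGTT (bases 2 to 8; 0.39% of 58201 probes) or CAGGTTA (bases 2 to 7 followed by A; 0.23%). None held a match to miR-139-5p, ACTGTAG (0.32%) or CTGTAGA (0.376%). One probe held the miR-490-5p word TCCATGA (0.588% of probes), and one the miR-139-3p word GTCTCCA (0.517%). The other words of these strands, ATCCATG (0.448%) and CGTCTCC (0.168%), were in no probe of the 10 genes. Both windows are shown on the transcript strand with the matched word in capitals, since they are the places where a member probe and a transfected strand could be set side by side. The DDOST window is on hg19 at chr1:20978926-20978954 (minus strand) and the RPN2 window at chr20:35862438-35862461 (plus strand).
DDOST: ccagcgccttcTCCATGAtgctggggctc
RPN2: gccaatGTCTCCAacttcactttt
DDOST had -0.42 after miR-490-5p and -0.33 after miR-490-3p, and RPN2 had -0.24 in A498 and -0.08 in 786-O after miR-139-3p. A match is a description and not a site.

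Promoters were searched on both strands in RefSeq windows of the GRCh38.p14 build that span a transcription start, which covered STT3A, MAGT1 (2 windows), RPN2, DDOST, DAD1, OSTC and UGGT1. The endoplasmic reticulum stress element, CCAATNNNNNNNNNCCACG, was in 0 of these 8 windows (0.0769% of 35116 windows), as were its second form, known as ERSE-II (0.0541%), and TGACGTGG (0.729%). The shorter word CCAAT, which the first element contains, was in 5 of 8 windows, those of DAD1, DDOST, STT3A and both of MAGT1 (34.6% of all windows). CCACG, contained in the first and second elements, was in those of DDOST and OSTC (38.1%).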

How the data were processed

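Gene expression was measured on 8 Agilent 2-colour arrays. Per the file headers, the authors processed the scans with Agilent Feature Extraction 11.5.1.1. The deposited intensity columns are mean spot brightness and local background median per channel, not normalized, and a further column is the log10 ratio that the software made of the dyes (Cy5 to Cy3) after its own corrections. Converted to log2, this scanner ratio was an alternative. The deposited value table of the series held the same log10 ratios.

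Outlier spots were dropped (112 to 194 of 62976 per array). Background was corrected with normexp (offset 50, which pulls ratios of dim probes toward 0), ratios were normalized by loess within each array with weight 0 for the 2075 control spots, and replicate spots were averaged. The probe with the brightest mean stood for a gene. Groups with 2 arrays were tested against 0 with limma 3.58.1 (R 4.3.3) in 1 fit of 8 arrays, 5 coefficients and 3 residual degrees of freedom, over probes that each array of the group showed above background in Cy3 or Cy5. The Benjamini-Hochberg adjustment covered all probes tested, with 0.05 as threshold. Testing a ratio against 0 ignores how mock cells vary. The arrays of a group are different cell lines or siRNAs, and the fit pools the spread within all groups of 2 arrays. The p-values of the miR-139 groups therefore also carry the gap between the siRNAs, and the number of arrays limits the precision. For MAGT1 after miR-139-5p the SD of its own 2 arrays was 0.06, while the SE in limma was 0.49. Conversely, the p-values of the siRNAs carry the spread of the miR-139 pairs and can be too small where that spread is less. For RPN2 the SD was 0.68 between the siRNA arrays, 0.06 between the miR-139-5p arrays and 0.11 between the miR-139-3p arrays. Its SE in limma for the siRNAs was 0.225. In HCT116 (1 array per strand) a size rule of log2 -1 or 1 was used among genes above background in at least 1 channel. The fit was tested on simulated data, whose settings and outcome are not given here, so no support is drawn from it.

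The arrays of both miR-139 strands pair by cell line, A498 and 786-O. Deviations from the group means correlated with r = 0.0753 over 22174 probes.

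Members and gene lists were chosen with earlier results of these data known. All 10 members were named. Pathway genes were named when past the size rule in HCT116 or called by limma (at most 5 per list and direction), along with the 3 genes nearest to STT3A and STT3B. Alternatives were other background corrections, the scanner ratio, median centring, no filter on dim probes, the median over probes, other fits, removal of dye bias (the mean over the other cell lines) and leaving out each array. Python 3.11.15, pandas 2.3.3, numpy 2.4.6, matplotlib 3.10.9 and the R package data.table (version 1.17.8) were used.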

Additional observations from a re-analysis of the deposited data

How the results depend on the processing

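With each alternative no member was called after either strand of miR-139 or between the strands, and the cell line as a replicate block left the contrast of the strands at 0 calls. With only a group's own arrays in the limma fit, 5 of 10 members had an unadjusted p under 0.05 after miR-139-5p (2140 of 23288 probes). After miR-139-3p 4 of 10 did (2960 of 22813 probes). In the main fit 0 and 1 members did. After miR-139-5p the 3 calls became 6 with an offset of 10, 7 with the scanner ratio, 6 with only its own arrays in the fit, and 0 with median centring, without the filter on dim probes, with a variance trend and robust prior, with dye bias removed, and without either array (range 0 to 0). After miR-139-3p the 0 calls became 6 with an offset of 10, 4 without background correction, 13 with the scanner ratio, 7 with only its own arrays and 3 with the median over probes. For the siRNAs the 1936 calls became 75 with the scanner ratio, 2974 with median centring, 544 with dye bias removed, and 0 with only their own arrays or with a variance trend and robust prior. They ranged from 6721 to 9471 with either array left out. The 0 members called became 1 with median centring (STT3B, 0.31, adjusted p = 0.0412 by limma), 1 with dye bias removed (STT3A, 0.74, adjusted p = 0.0408 by limma) and 3 to 6 with either array left out. MAGT1 turned from -0.13 to 0.93 without siRNA 2 and was -1.19 without siRNA 1. With either siRNA array left out the fit holds no spread between siRNAs, so nothing is read from those calls.

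In HCT116 the genes at or below -1 after miR-490-3p (147) became 291 with an offset of 10, 261 without background correction, 870 with the scanner ratio and 72 with median centring, and those at or above 1 (87) became 177, 151, 880 and 251. After miR-490-5p those at or below -1 (235) became 432, 379 and 829 under the first 3 of these, and those at or above 1 (64) became 165, 130, 1049 and 129. The members at or below -1 after miR-490-5p (1) became 2 with an offset of 10 and 2 with the scanner ratio. For the difference of the strands, genes at or below -1 (92) became 263, 222 and 1049, genes at or above 1 (174) became 390, 340, 963 and 347, and the members at or below -1 (0) became 1 under each of the first 3 settings, which was STT3B. The causes were not tested. Median centring moved the median of all genes to 0.14 after miR-139-5p in A498 and to 0.18 with siRNA 1. Unlike loess it takes out no trend of the ratio with brightness. With siRNA 1 the bright DAD1 probe went from 0.49 to 1.21, and the dimmer STT3B probe from -0.04 to 0.26. The medians of all genes are therefore no baseline for bright probes under it.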
